A study of Mus musculus with 9 samples.

Results

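The unfolded protein response (UPR) and ER folding genes form a module of 35 genes out of 53379 in the deposited table. They were chosen by symbol for what their proteins do, not for their values, and each symbol matched 1 row. The module holds 3 sensors of ER stress, 3 transcription factors, 4 targets of the PERK-ATF4 branch, 9 chaperones of the HSP70 and HSP90 systems with their cofactors, 2 lectin chaperones, 5 disulfide enzymes, 8 genes of ER-associated degradation (ERAD) and 1 subunit of the translocon. Bone marrow (BM) of wild-type C57BL/6 mice was cultured with 10 ng/ml MCSF (CSF-1), the growth factor that drives Mϕ differentiation, for 3 days. Control Mϕs then stayed in MCSF alone, IL-4 Mϕs received MCSF plus 10 ng/ml IL-4 and IL-6 Mϕs received MCSF plus 100 ng/ml IL-6, in each case for 4 days by the labels, while the methods and legends give other doses and times. Marrow came from 3 mice, and each group has 3 stranded mRNA libraries numbered #1 to #3, which were taken as the mice. The cultures were not sorted, and no age of the mice is given for them. Values are FPKM, the fragments per kilobase of a gene and 1000000 fragments.

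The ER folds secreted and membrane proteins, and the UPR adjusts its capacity to the load. The sensor IRE1 (Ern1) splices the mRNA of Xbp1, ATF6 (Atf6) is cut to release a transcription factor, and PERK (Eif2ak3) phosphorylates the initiation factor eIF2, which lowers protein synthesis while raising translation of Atf4. Other kinases that sense amino acid shortage, viral RNA or heme deficiency act on eIF2 as well, so that Atf4 and its targets also answer to signals outside the ER, known together as the integrated stress response (ISR). Gene-level FPKM do not show Xbp1 splicing, ATF6 cleavage or phosphorylation.

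The libraries hold 29988160 to 39909571 fragments. Socs3, a feedback inhibitor induced by IL-6, was at 74.7 to 85.5 FPKM in the IL-6 libraries and at most 3.23 in the others, and Bcl3 was at 30.7 to 35.1 FPKM against at most 16.1. The classical IL-4 targets Arg1 and Retnla were at 730.3 to 1227 and 10230 to 24320 FPKM in the IL-4 libraries and at most 5.33 and 27.9 in the others, and Actb was at 1164 to 1569 FPKM throughout. All 10 macrophage markers had a mean over 1 FPKM. The 9 libraries fall into 2 sets by 20 genes that mark Paneth and goblet cells of the gut. Their transcripts summed to 34.7 to 52.8 fragments per 1000000 in the set of IL-4 #1 and all 3 controls, and to between 0.0990 and 0.245 in the remaining 5. Control and IL-6 libraries lie wholly in different sets, so for this comparison set and treatment cannot be told apart, while for IL-4 the same comparison can be read within a set from IL-4 #1 alone. IL-4 #3 stood apart by gene length. Over the 11356 tested genes with a known exon length, its median log2 difference from the mean of IL-4 #1 and #2 was 0.364 in the first of 4 equal classes of exon length, the shortest, and −0.965 in the longest.

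Of the 35 genes, 34 passed the filter of a mean of 0.5 FPKM over the 9 libraries and entered the test across 12824 genes. Derl3, a derlin of the ERAD channel found mainly in secretory cells, did not pass, with 3 to 22 fragments or 0.0502 to 0.359 FPKM. Calr was the most abundant member (mean 322 FPKM over 9 libraries), followed by P4hb (236), Pdia3 (214), Hspa5 (191) and Hsp90b1 (185), while Chac1 (2.61) was the lowest of those tested. Together the 35 genes summed to 2119 ± 192 FPKM in control Mϕs, were at 2710 ± 298 under IL-4 and at 1629 ± 50.8 under IL-6 (SD, n = 3), or 0.607%, 0.735% and 0.479% of all FPKM. In whole cultures, fewer cells of a type and less RNA per cell cannot be told apart.

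**Figure D1:**
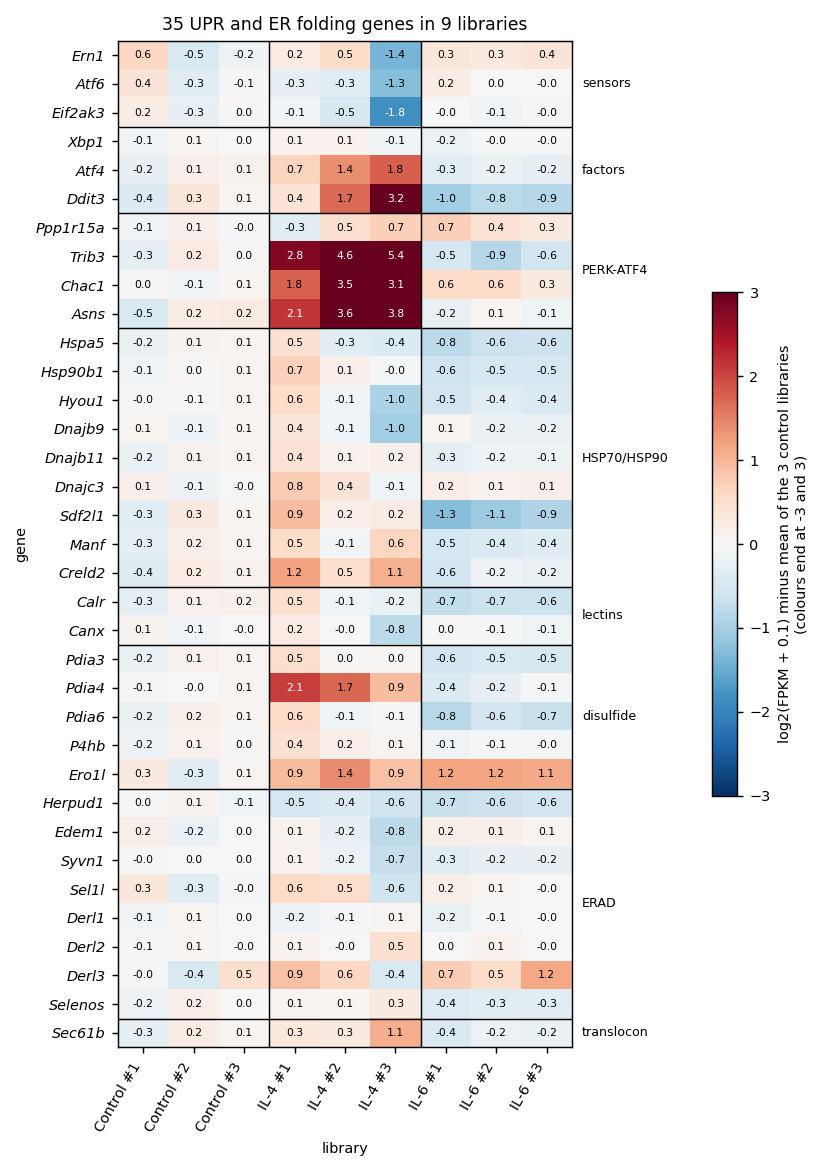
Each of the 35 genes (rows, grouped by role) in each of the 9 libraries (columns), as log2(FPKM + 0.1) minus the mean of the 3 control libraries. Red is higher and blue lower than control, and colours end at −3 and 3. Atf4, Ddit3, Trib3, Chac1 and Asns are red in the 3 IL-4 libraries, many folding genes are reddest in IL-4 #1, and many are pale blue in the 3 IL-6 libraries.

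IL-4 raised 7 of the 34 tested genes and lowered 1. The genes that rose were Atf4, Trib3, Chac1 and Asns of the PERK-ATF4 branch, the disulfide enzymes Pdia4 and Ero1l, and the chaperone Creld2, and Herpud1 fell. The 7 are 20.6% of the tested members, against 8.55% of all genes called higher, and the 1 is 2.94%, against 16.3% of all genes called lower (limma, adjusted p under 0.05). With a change of at least 2-fold as well, 6 members were called higher (5.02% of all genes) and 0 lower (8.89%). The median log2 fold change was 0.20 over the members and −0.20 over all genes. A rescaling of each library to its median ratio moved the median of all genes to 0.00 and that of the members to 0.40, and it moved the split of all calls from 1096 higher and 2090 lower to 1571 and 1606. FPKM of 9 members were above every control library in all 3 IL-4 libraries (26.5%, against 13.5% of all genes) and those of 1 were below (2.94%, against 26.8%).

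IL-6 raised 1 tested gene, Ero1l, and lowered 2, Sdf2l1 and Herpud1. These are 2.94% and 5.88% of the tested members, against 4.58% of all genes called higher and 3.82% called lower, and with a 2-fold change 1 member was called in each direction (3.49% and 1.89% of all genes). Shares this near to those of all genes are not a result about the module. The median log2 fold change was −0.22 over the members and 0.00 over all genes, and 13 members lay below all controls in every IL-6 library (38.2%, against 23.2% of all genes) while 3 lay above (8.82%, against 20.0%). The count of lower members moved with the libraries that entered the fit. Without IL-4 #3, whose spread enters the shared estimate of error, 8 members were called lower with IL-6, namely Hspa5, Hsp90b1, Sdf2l1, Calr, Pdia3, Pdia6, Herpud1 and Selenos (23.5%, against 12.4% of all genes), and 1 was called higher (2.94%, against 12.4%). It was 7 without IL-4 #1 (500 of 12800 genes) and 0 without Control #2, IL-6 #1 or IL-6 #2 (180, 189 and 188 genes). With the mouse number as a block it was 1, Herpud1 (370 of 12824 genes).

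Set against each other, IL-6 and IL-4 Mϕs differed in 16 members, each lower with IL-6. They were Atf4, Ddit3 and their targets Trib3, Chac1 and Asns, 5 chaperones and cofactors (Hsp90b1, Dnajb11, Sdf2l1, Manf, Creld2), Calr, the disulfide isomerases Pdia3, Pdia4 and Pdia6, and Selenos and Sec61b. The 16 are 47.1% of the tested members, against 13.3% of all genes called lower, and 0 members were called higher, against 20.8% (2-fold: 8 lower against 6.82% of all genes, 0 higher against 13.6%). The median log2 difference was −0.37 over the members and 0.22 over all genes. In 18 members each IL-6 library was below each IL-4 library (52.9%, against 20.6% of all genes), and in 2 it was above (5.88%, against 36.3%). Without IL-4 #3 the counts were 21 lower (61.8%, against 18.3% of all genes) and 0 higher (24.9%), and for IL-4 against control they were 9 higher (26.5%, against 15.1%) and 1 lower (2.94%, against 22.5%). Where library set is a covariate, its term comes only from IL-4 #1 against IL-4 #2 and #3. In such a fit, IL-4 against control compares IL-4 #1 alone with the controls, and IL-6 against IL-4 uses IL-4 #2 and #3. IL-6 against control is the sum of both, so it carries the spread among the IL-4 libraries. With library set as a covariate, 5 members were higher with IL-4 (14.7%, against 4.57% of all genes) and 0 lower (6.09%), with Atf4, Creld2 and Ero1l lost and Hsp90b1 gained. For IL-6 against control this gave 0 higher (1.15% of all genes) and 1 lower, Trib3 (2.94%, against 0.312%). Between IL-6 and IL-4 it gave 2 higher, Eif2ak3 and Edem1 (5.88%, against 24.7%), and 15 lower (44.1%, against 14.6%). Leaving out any 1 IL-6 library ended the calls of Calr, Dnajb11 and Sec61b (highest limma adjusted p = 0.0837, 0.123 and 0.0953), and Dnajb11 also lost its call without Control #2, Control #3 or IL-4 #1. Manf and Selenos lost theirs without IL-6 #1 or #2 and Pdia6 without IL-6 #1 (highest limma adjusted p = 0.0665, 0.0601 and 0.0595). The 3 comparisons share libraries, so their counts are not independent.

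**Figure D2:**
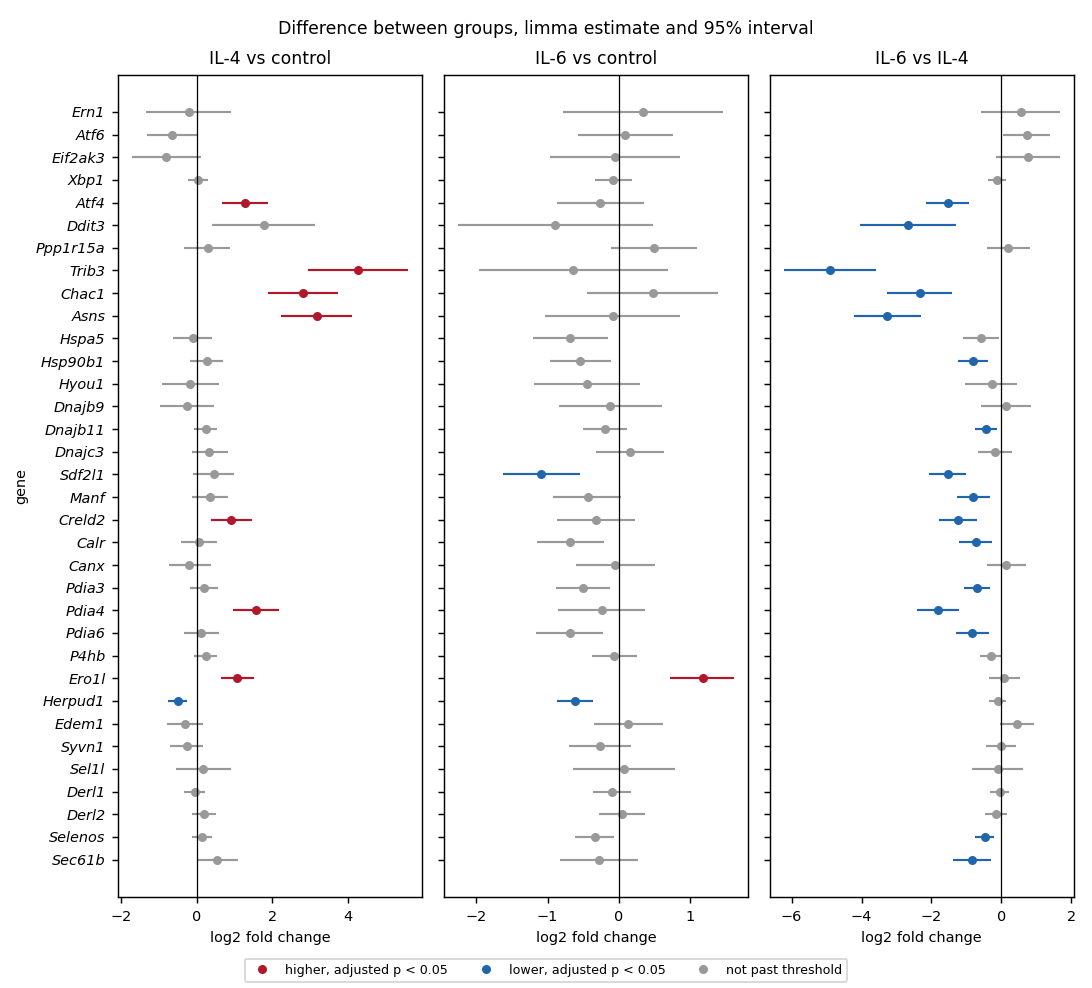
The log2 fold change of the 34 tested genes (points) with its 95% interval (lines) in the 3 comparisons, from the limma fit to log2(FPKM + 0.1). Points in red or blue passed an adjusted p of 0.05. Trib3, at 4.27 with IL-4 and −4.91 between IL-6 and IL-4, lies farthest from 0, and no point is red in the IL-6 against IL-4 panel.

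The sensors were expressed at modest levels in all groups, and none passed the test. Ern1 encodes IRE1 and was at 15.8, 7.37 and 9.17 FPKM in Control #1 to #3, 12.1, 15.0 and 3.82 in IL-4 #1 to #3 and 12.9, 12.7 and 13.5 in the IL-6 libraries. Atf6 was at 17.8, 10.8 and 13.0, 11.0, 10.8 and 5.50 and 15.9, 13.8 and 13.5 FPKM in the same order. Eif2ak3, which encodes PERK, was at 7.69, 5.48 and 6.69, 6.15, 4.68 and 1.76 and 6.49, 6.17 and 6.38 FPKM. In each of these long genes IL-4 #3 was the lowest of the 9 libraries, and the other libraries overlapped between groups, except that all IL-6 values of Atf6 and Eif2ak3 lay above all IL-4 values. The log2 differences between IL-6 and IL-4 were 0.72 for Atf6 (limma adjusted p = 0.087) and 0.76 for Eif2ak3 (0.165). Eif2ak3 with library set as a covariate was called higher in IL-6 than in IL-4 Mϕs (1.11, limma adjusted p = 0.0471). The fit without IL-4 #1 makes the same comparison, with IL-4 #2 and #3 alone, so its call is not a separate result. With the length trend removed this difference in Eif2ak3 was 0.41 and not past the threshold (limma adjusted p = 0.183). In that fit Atf6 was called lower with IL-4 (−0.34, limma adjusted p = 0.0236).

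Xbp1, the factor whose mRNA IRE1 splices, was the steadiest of the factors. It was at 42.7, 47.8 and 45.6 FPKM in the controls, 49.4, 49.4 and 41.3 under IL-4 and 40.3, 44.2 and 44.1 under IL-6. The groups overlapped, with 95% intervals of the log2 difference of −0.22 to 0.30 for IL-4 and −0.34 to 0.18 for IL-6. IL-6 was called lower than IL-4 for Xbp1 only after median-ratio rescaling (−0.35, limma adjusted p = 0.0368).

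Atf4, the factor translated when eIF2 is phosphorylated, was at 74.9, 97.7 and 94.3 FPKM in the controls, 139.8, 233 and 308 under IL-4 and 70.5, 76.5 and 74.7 under IL-6. Every IL-4 library was above every other library, and IL-4 #1 was the lowest of them. Atf4 rose 2.55-fold with IL-4, from 89.0 ± 12.3 to 227 ± 84.1 FPKM (SD, n = 3), with a log2 fold change of 1.29, SE 0.264, limma adjusted p = 0.00926. With library set as a covariate, the call was lost (0.66, limma adjusted p = 0.108). IL-6 Mϕs were at 73.9 ± 3.09 FPKM, lower than IL-4 Mϕs (log2 fold change −1.54, SE 0.264, limma adjusted p = 0.00291) and overlapping with control.

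Ddit3 encodes CHOP, a factor that ATF4 induces and that promotes cell death under lasting stress. It lies at chr10:127290774-127296288 (GRCm38). Control libraries were at 13.8, 23.2 and 19.5 FPKM, IL-4 libraries at 24.3, 60.2 and 169.5 and IL-6 libraries at 8.97, 10.5 and 10.1. All IL-4 libraries were above and all IL-6 libraries below the controls (−0.90 on the log2 scale, limma adjusted p = 0.463), but IL-4 #1 was just above Control #2 and IL-4 #3 far above the rest. The difference between IL-4 and control was not past the threshold (log2 fold change 1.77, SE 0.594, limma adjusted p = 0.0634), while with the mouse number as a block it was (limma adjusted p = 0.0451). The log2 fold change was 1.05 without IL-4 #3 (limma adjusted p = 0.0526) and 0.40 with library set as a covariate (0.754), and with the length trend removed it was 1.83 (0.0358). It was past the threshold also without IL-4 #1 (2.45, limma adjusted p = 0.00566) and after quantile normalization (1.68, limma adjusted p = 0.0418). IL-6 Mϕs were lower than IL-4 Mϕs (log2 fold change −2.66, SE 0.594, limma adjusted p = 0.0101).

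Trib3, a pseudokinase that ATF4 and CHOP induce, had the largest change of the module. It lies at chr2:152337422-152344032. It was at 1.28, 1.88 and 1.60 FPKM in the controls (95 to 120 fragments), 11.4, 40.2 and 72.4 under IL-4 (826 to 6139 fragments) and 1.08, 0.821 and 1.03 under IL-6 (57 to 80 fragments). Every IL-4 library was far above the rest, and they differed widely among themselves. The mean rose 26.0-fold with IL-4 (log2 fold change 4.27, SE 0.574, limma adjusted p = 0.00116). IL-6 Mϕs were lower than IL-4 Mϕs (log2 fold change −4.91, SE 0.574, limma adjusted p = 0.000412), and all 3 were below the controls without passing the test (−0.64, limma adjusted p = 0.598).

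Asns, asparagine synthetase and a standard target of ATF4 under amino acid shortage, lies at chr6:7675169-7693254. Its FPKM were 3.62, 5.93 and 5.97 in control, 22.5, 63.2 and 69.4 in IL-4 and 4.31, 5.31 and 4.63 in IL-6 libraries, so that only the IL-4 libraries stood apart. Asns rose 9.99-fold with IL-4 (log2 fold change 3.17, SE 0.413, limma adjusted p = 0.000985), and IL-6 Mϕs were lower than IL-4 Mϕs (log2 fold change −3.26, SE 0.413, limma adjusted p = 0.000624). Chac1, which degrades glutathione, lies at chr2:119351229-119354381. It was at 0.718, 0.632 and 0.731 FPKM in the controls, 2.61, 8.97 and 6.84 under IL-4 and 1.09, 1.07 and 0.855 under IL-6. It rose 8.86-fold with IL-4 (log2 fold change 2.81, SE 0.4, limma adjusted p = 0.00158), and the IL-6 libraries were slightly above all controls without passing the test (0.47, limma adjusted p = 0.577).

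Ppp1r15a, which encodes GADD34, the phosphatase subunit that reverses eIF2 phosphorylation, had another order of levels. It was at 10.9, 13.1 and 11.5 FPKM in control, 9.26, 16.5 and 19.5 in IL-4 and 19.5, 16.1 and 14.5 in IL-6 libraries. IL-4 #1 was below all controls and IL-4 #2 and #3 above, and all IL-6 libraries were above the controls. Neither difference passed the test in the reported fit (log2 fold change 0.29 and 0.49, limma adjusted p = 0.461 and 0.347). Ppp1r15a was called higher with IL-4 without IL-4 #1, and higher with IL-6 with only the groups compared in the fit.

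**Figure D3:**
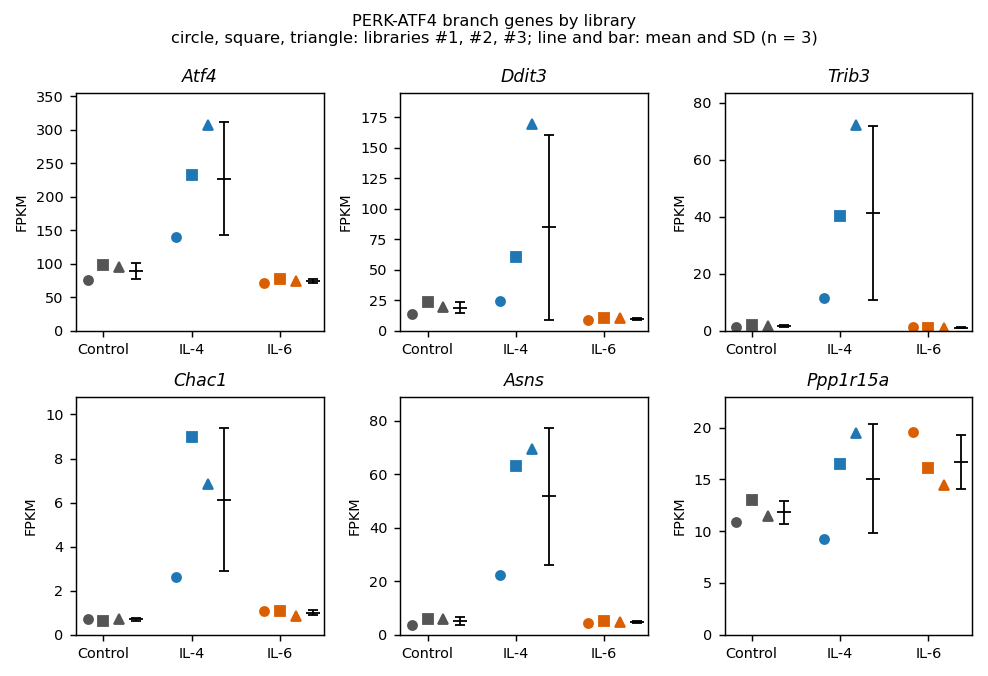
FPKM (linear axes from 0) of Atf4, Ddit3 and 4 targets in each library (points), with the mean and SD of each group beside them (n = 3). In Atf4, Ddit3, Trib3, Chac1 and Asns each IL-4 library lies above each control and IL-6 library, with IL-4 #1 the lowest of the IL-4 libraries, while Ppp1r15a overlaps.

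The promoters of Asns and Chac1 are shown because both genes rose with IL-4 and both hold the core of the amino acid response element, TGATGNAA, in the 250 bases before the annotated start. Sequences are from RefSeq on GRCm38.p6, 5′ to 3′ on the strand of the gene, and 31 of the 35 genes had a promoter in the table. Capitals mark the match, which is on the gene's strand and begins 23 bases before the start in Asns (chr6:7693210-7693459, minus strand) and is on the other strand 193 bases before the start in Chac1 (chr2:119350992-119351241, plus strand).
Asns: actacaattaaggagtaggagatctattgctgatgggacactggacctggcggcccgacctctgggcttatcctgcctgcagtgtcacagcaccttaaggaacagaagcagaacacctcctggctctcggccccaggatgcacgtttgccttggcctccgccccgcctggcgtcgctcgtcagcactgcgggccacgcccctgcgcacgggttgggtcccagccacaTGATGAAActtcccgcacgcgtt
Chac1: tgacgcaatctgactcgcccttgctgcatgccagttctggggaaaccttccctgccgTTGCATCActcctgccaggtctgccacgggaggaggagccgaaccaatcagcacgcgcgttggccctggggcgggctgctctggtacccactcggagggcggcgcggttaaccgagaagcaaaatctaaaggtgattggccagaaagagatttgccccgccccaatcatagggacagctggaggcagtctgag
The core was found on either strand in 3 of the 31 promoters (9.68%), the third being Herpud1, which fell, and in 3.45% of all 32851 promoters of the same length. The letters are a description of these windows, and the promoters of Atf4, Ddit3 and Trib3 do not hold them there.

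Other genes of the ISR and of ATF4-linked metabolism were mostly higher in IL-4 Mϕs. Of 45 such genes outside the module (amino acid synthesis and transport, aminoacyl-tRNA synthetases, eIF2 kinases and exchange factors), 42 were tested. IL-4 raised 25 of them (59.5%, against 8.55% of all genes) and lowered 0, with a median log2 fold change of 0.95. IL-6 raised 4 (9.52%, against 4.58% of all genes) and lowered 1 (2.38%, against 3.82%), with a median of −0.14. With library set as a covariate none of these rises was called, and the median was −0.53, beside 0.20 over all genes. Between IL-6 and IL-4, 25 (59.5%, against 13.3% of all genes) were lower with IL-6 and 4 higher (9.52%, against 20.8%), with a median of −0.87. For IL-4 against control the counts were 27 higher and 1 lower without IL-4 #3 (64.3% and 2.38%, against 15.1% and 22.5% of all genes), and 15 and 1 with library set as a covariate (35.7% and 2.38%, against 4.57% and 6.09%).

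Named by size of change, Phgdh and Psat1, enzymes of serine synthesis, and Mthfd2, of mitochondrial folate metabolism, were among the 4 largest rises with IL-4. Phgdh was at 1.79, 3.31 and 2.94 FPKM in control, 13.9, 44.1 and 76.0 in IL-4 and 3.58, 5.08 and 4.58 in IL-6 libraries (log2 fold change 3.74, SE 0.555, limma adjusted p = 0.00195 for IL-4). Psat1 rose from 4.45 ± 0.894 to 47.8 ± 13.9 FPKM with IL-4 (3.37, SE 0.27, limma adjusted p = 8.55e-05), and Mthfd2 from 6.94 ± 1.35 to 40.0 ± 15.2 (2.44, SE 0.304, limma adjusted p = 0.000778). All 3 were lower in IL-6 than in IL-4 Mϕs. The 25 that rose with IL-4 include aminoacyl-tRNA synthetases, the enzymes that charge tRNA, and the amino acid transporters Slc7a1, Slc7a5 and Slc7a11. Iars, another synthetase of the list, was not called with IL-4. Slc7a11 and Nupr1, a stress-induced factor, rose with both cytokines (with IL-4 by 1.25 and 1.88 on the log2 scale, limma adjusted p = 0.0185 and 0.0222). With library set as a covariate neither was called higher with IL-6, nor were Ddit4 and Cebpb. IL-6 raised Ddit4, an inhibitor of mTORC1 (2.71, 3.33 and 3.46 FPKM in control, 13.4, 19.1 and 23.1 with IL-6; log2 fold change 2.49, SE 0.241, limma adjusted p = 0.00069), the cystine transporter Slc7a11 (2.31, SE 0.304, limma adjusted p = 0.00316), Nupr1 (2.16, SE 0.477, limma adjusted p = 0.0303) and Cebpb (1.42, SE 0.338, limma adjusted p = 0.0394). Atf3, an ATF4 target as well, rose with IL-4 (from 136 ± 17.0 to 304 ± 41.5 FPKM; 1.15, SE 0.147, limma adjusted p = 0.000801) and fell with IL-6 (to 65.2 ± 3.65 FPKM; −1.06, SE 0.147, limma adjusted p = 0.00372).

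Of the 9 chaperones and cofactors of the HSP70 and HSP90 systems, 1 rose with IL-4 (8.55% of all genes) and 1 fell with IL-6 (3.82% of all genes). Counts of 1 gene are not a result about this group. In IL-6 against IL-4 Mϕs 5 were lower (13.3% of all genes). Hspa5 encodes BiP, the ER HSP70 that holds the sensors inactive and folds new proteins. It was at 192, 238 and 232 FPKM in the controls, 300.3, 174 and 166 under IL-4 and 128, 141 and 143 under IL-6. IL-4 #1 was the highest of the 9 libraries while IL-4 #2 and #3 were below all controls, and the IL-6 libraries were the lowest. The difference from control did not pass the test with IL-4 (log2 fold change −0.10, SE 0.226, limma adjusted p = 0.783) or with IL-6 (log2 fold change −0.68, SE 0.226, limma adjusted p = 0.122). Without IL-4 #3 in the fit, that with IL-6 did (limma adjusted p = 0.0378).

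Hsp90b1, the ER HSP90 known as GRP94, was also highest in IL-4 #1 and lowest in the IL-6 libraries. It was at 174, 195 and 200.4 FPKM in control, 309, 209.8 and 185 in IL-4 and 126, 132 and 134 in IL-6 libraries. IL-6 Mϕs were lower than IL-4 Mϕs (log2 fold change −0.81, SE 0.186, limma adjusted p = 0.0116), and each IL-6 library was below each control (−0.54, limma adjusted p = 0.135). Sdf2l1, a cofactor of BiP, was at 49.8, 75.8 and 65.1 FPKM in control, 119, 72.3 and 72.9 in IL-4 and 25.9, 29.2 and 33.6 in IL-6 libraries. It fell with IL-6 to 0.465 of the control mean (log2 fold change −1.09, SE 0.236, limma adjusted p = 0.0283), and with the mouse number as a block this call was lost (limma adjusted p = 0.0677). It was also lost without Control #2, Control #3 or any 1 IL-6 library (highest limma adjusted p = 0.113). The value with library set as a covariate was −0.38 (limma adjusted p = 0.428). IL-6 Mϕs were lower than IL-4 Mϕs as well (log2 fold change −1.54, SE 0.236, limma adjusted p = 0.00169).

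Creld2, a chaperone induced by ATF6, was the cofactor that rose with IL-4. It was at 15.4, 23.4 and 21.6 FPKM in control, 45.6, 27.5 and 42.0 in IL-4 and 13.3, 17.6 and 16.9 in IL-6 libraries. All IL-4 libraries were above all controls (log2 fold change 0.92, SE 0.237, limma adjusted p = 0.0242), but the call was lost without Control #1, Control #3 or IL-4 #1 (highest limma adjusted p = 0.083) and with library set as a covariate (0.0584). The call of Creld2 was also lost with no filter on low values and with only the groups compared in the fit. Manf, a secreted ER stress factor, did not pass against control in the reported fit, but without IL-4 #2 it was called higher with IL-4. Manf was lower with IL-6 than with IL-4 (15.8 ± 0.977 and 28.2 ± 7.10 FPKM, log2 fold change −0.81, SE 0.207, limma adjusted p = 0.0183). Dnajb11, an HSP40 partner of BiP, was lower with IL-6 than with IL-4 (log2 fold change −0.44, SE 0.135, limma adjusted p = 0.0365), a call that the block by mouse ended (limma adjusted p = 0.0653). The other HSP40s, Dnajb9 and Dnajc3, and the nucleotide exchange factor Hyou1 had log2 fold changes of −0.45 to 0.34 against control, none past the threshold in the reported fit. Without IL-4 #3, Dnajc3 was called higher with IL-4 (0.57, limma adjusted p = 0.0106) and Hyou1 lower in IL-6 than in IL-4 Mϕs (−0.68, 0.0148). With only the groups compared in the fit, Hyou1 was called lower with IL-6 than in control.

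Among the lectin chaperones, which hold glycoproteins during folding, Calr (calreticulin) was at 294, 392 and 398 FPKM in control, 502, 329.6 and 313 in IL-4 and 214, 227 and 231 in IL-6 libraries. IL-6 libraries were the lowest, below all controls (log2 fold change −0.68, SE 0.204, limma adjusted p = 0.0906 against control) and below all IL-4 libraries (log2 fold change −0.73, SE 0.204, limma adjusted p = 0.0256 against IL-4). The latter call was lost with the mouse as a block (limma adjusted p = 0.0507). Canx (calnexin), the membrane-bound relative, was at 111 ± 8.10, 102 ± 34.7 and 108 ± 5.90 FPKM in control, IL-4 and IL-6 Mϕs, and passed no test.

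The promoters of Hsp90b1, Calr, Hspa5, Canx and Pdia6 are shown because they hold the ER stress response element (ERSE), the site that ATF6 with NF-Y and XBP1 is known to bind. It was searched as CCAAT and, after 9 bases, CCACG, on both strands of the 250 bases before the start. Capitals mark both parts of the element, and where it is on the other strand they read CGTGG and ATTGG. It begins 212 and 107 bases before the start in Hsp90b1 (chr10:86705445-86705694, minus strand), 162 in Calr (chr8:84846932-84847181, minus strand), 65 in Hspa5 (chr2:34771840-34772089, plus strand), 145 in Canx (chr11:50325674-50325923, minus strand) and 98 in Pdia6 (chr12:17266339-17266588, plus strand).
Hsp90b1: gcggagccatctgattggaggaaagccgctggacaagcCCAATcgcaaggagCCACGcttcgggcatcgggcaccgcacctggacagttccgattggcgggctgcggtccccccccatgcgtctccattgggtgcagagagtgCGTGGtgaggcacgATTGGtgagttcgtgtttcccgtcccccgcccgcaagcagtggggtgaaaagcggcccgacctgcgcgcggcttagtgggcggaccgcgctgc
Calr: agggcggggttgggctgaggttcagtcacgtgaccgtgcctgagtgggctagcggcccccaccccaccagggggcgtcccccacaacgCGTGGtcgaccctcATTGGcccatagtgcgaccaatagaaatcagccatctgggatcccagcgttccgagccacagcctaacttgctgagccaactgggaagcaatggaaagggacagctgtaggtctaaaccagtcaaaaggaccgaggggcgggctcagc
Hspa5: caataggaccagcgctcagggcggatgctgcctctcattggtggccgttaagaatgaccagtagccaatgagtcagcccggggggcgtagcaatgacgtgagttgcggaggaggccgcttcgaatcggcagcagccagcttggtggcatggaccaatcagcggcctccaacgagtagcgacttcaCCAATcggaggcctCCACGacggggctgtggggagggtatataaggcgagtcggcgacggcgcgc
Canx: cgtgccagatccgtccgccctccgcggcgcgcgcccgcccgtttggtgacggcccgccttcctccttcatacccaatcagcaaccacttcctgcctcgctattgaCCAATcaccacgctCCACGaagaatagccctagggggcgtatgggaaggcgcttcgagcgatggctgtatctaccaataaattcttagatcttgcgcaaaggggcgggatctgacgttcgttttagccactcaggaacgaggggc
Pdia6: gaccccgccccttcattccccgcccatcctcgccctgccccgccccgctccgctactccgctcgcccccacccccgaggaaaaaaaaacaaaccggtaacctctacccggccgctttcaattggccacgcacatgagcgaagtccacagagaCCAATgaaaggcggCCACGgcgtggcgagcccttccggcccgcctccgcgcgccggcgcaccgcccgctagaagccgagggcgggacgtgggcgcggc
ERSE was found in 9 of the 31 promoters (29.0%; also Creld2, Derl3, Dnajc3 and Syvn1) and in 37 of all 32851 promoters (0.113%). A shorter form, ERSE-II, which is ATTGG and, after 1 base, CCACG, was in that of Herpud1 (3.23%, against 0.0304% of all promoters), and the XBP1 site TGACGTGG was in none, against 0.563%. Of the 8 genes with ERSE that were tested, Creld2 rose with IL-4, Hsp90b1, Creld2, Calr and Pdia6 were lower in IL-6 than in IL-4 Mϕs, and Hspa5, Canx, Dnajc3 and Syvn1 did not pass in the reported fit. Hspa5 was called lower in IL-6 than in IL-4 Mϕs (−0.81, limma adjusted p = 0.0182) and Dnajc3 higher with IL-4 (0.55, 0.0251) after median-ratio rescaling. Median log2 fold changes of the 8 genes with ERSE were 0.10 with IL-4, −0.43 with IL-6 and −0.66 for IL-6 against IL-4, and those of the 22 tested genes without it were 0.24, −0.10 and −0.38.

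Among the disulfide enzymes Pdia4 and Ero1l rose with IL-4. Pdia4, a protein disulfide isomerase of the complex with BiP and GRP94, lies at chr6:47796141-47813430 and was at 37.6, 39.0 and 41.8 FPKM in control, 165, 130.3 and 74.7 in IL-4 and 29.5, 33.4 and 37.8 in IL-6 libraries. All IL-4 libraries were above all others. It rose 3.13-fold (log2 fold change 1.57, SE 0.264, limma adjusted p = 0.00369), and IL-6 Mϕs were lower than IL-4 Mϕs (log2 fold change −1.81, SE 0.264, limma adjusted p = 0.00132). Unlike Atf4 and its targets, it was highest in IL-4 #1 and lowest in IL-4 #3.

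Ero1l, the oxidase that passes disulfide bonds to the isomerases and is also induced by hypoxia, was the member that rose with both cytokines. It lies at chr14:45283087-45318771. It was at 8.60, 5.65 and 7.57 FPKM in control, 13.9, 19.4 and 13.3 in IL-4 and 16.5, 16.3 and 16.0 in IL-6 libraries. Both cytokine groups were above all controls, by 2.13-fold with IL-4 (log2 fold change 1.08, SE 0.193, limma adjusted p = 0.00484) and 2.23-fold with IL-6 (log2 fold change 1.17, SE 0.193, limma adjusted p = 0.0087), and they share these controls. They overlapped with each other (log2 difference 0.08, 95% interval −0.36 to 0.53). With library set as a covariate neither call held (0.94 and 0.96, limma adjusted p = 0.0791 and 0.236).

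Pdia3 and Pdia6 were likewise highest in IL-4 #1 and lowest in the IL-6 libraries. Pdia3, which serves glycoproteins bound to calnexin and calreticulin, was at 194, 244 and 236 FPKM in control, 320.0, 229 and 229 in IL-4 and 152, 163 and 159 in IL-6 libraries. Pdia6 was at 64.7, 85.2 and 78.4, 113, 69.4 and 72.9 and 42.4, 50.6 and 47.3 FPKM. In both genes the IL-6 libraries were below all others, and the difference passed the test against IL-4 (log2 −0.70, SE 0.164, limma adjusted p = 0.0123, and −0.83, SE 0.202, limma adjusted p = 0.0151) and not against control (limma adjusted p = 0.113 and 0.0801). Quantile normalization ended the calls of Pdia3, Hsp90b1 and Calr between IL-6 and IL-4. P4hb, the most abundant isomerase, was at 226 ± 24.4, 268 ± 36.0 and 215 ± 6.41 FPKM and did not pass in the reported fit. It was called lower in IL-6 than in IL-4 Mϕs after median-ratio rescaling (−0.54, limma adjusted p = 0.0241), without IL-4 #3 (−0.39, 0.0333) and with the length trend removed (−0.36, 0.0396).

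**Figure D4:**
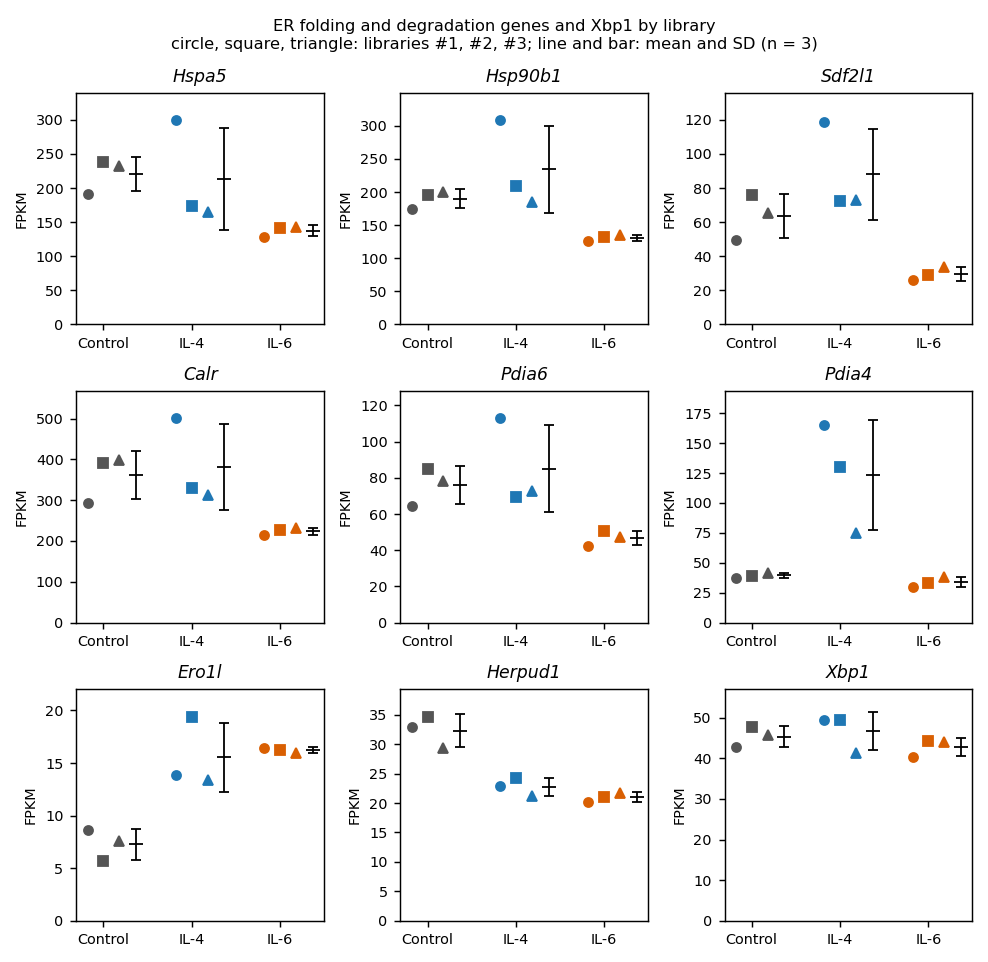
FPKM (linear axes from 0) of 7 folding genes, Herpud1 and Xbp1 in each library (points), with the mean and SD of each group (n = 3). Hspa5, Hsp90b1, Sdf2l1, Calr, Pdia6 and Pdia4 are highest in IL-4 #1, IL-6 libraries lie lowest in these genes except that Pdia4 overlaps with control, Ero1l is above control with both cytokines, Herpud1 is below it with both, and Xbp1 overlaps.

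Of the ERAD genes, which return misfolded proteins to the cytosol for degradation, Herpud1 changed. Herpud1, a membrane partner of the ubiquitin ligase HRD1, lies at chr8:94386438-94395377. It was at 32.9, 34.7 and 29.3 FPKM in control, 22.8, 24.2 and 21.2 in IL-4 and 20.2, 21.0 and 21.8 in IL-6 libraries. It fell with both cytokines, to 0.703 of the shared control mean with IL-4 (log2 fold change −0.50, SE 0.11, limma adjusted p = 0.0114) and 0.65 with IL-6 (log2 fold change −0.62, SE 0.11, limma adjusted p = 0.0111). The fall with IL-4 lost its call after median-ratio rescaling (−0.30, limma adjusted p = 0.1) and without Control #2 (0.0517), and that with IL-6 without Control #2, IL-6 #1 or IL-6 #2 (highest 0.0603). With library set as a covariate neither was past the threshold (limma adjusted p = 0.1 and 0.206).

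No other ERAD gene passed a test against control in the reported fit. Without IL-4 #3, Sel1l was called higher with IL-4 (0.57, limma adjusted p = 0.0316) and Selenos lower with IL-6 (−0.34, 0.0307). Both were also called with the length trend removed (0.47 and −0.29, limma adjusted p = 0.00838 and 0.0382). With only the groups compared in the fit, Syvn1 was called lower with IL-6. Syvn1, which encodes HRD1 itself, was at 14.4 ± 0.230, 12.4 ± 3.40 and 12.0 ± 0.340 FPKM in control, IL-4 and IL-6 Mϕs, and its adaptor Sel1l at 21.1 ± 4.78, 25.2 ± 9.90 and 21.9 ± 1.45. Edem1, the lectin that draws misfolded glycoproteins to ERAD, was at 39.8 ± 4.95, 33 ± 9.76 and 43.5 ± 1.26 FPKM. Derl1 and Derl2, channel proteins, had log2 fold changes of −0.10 to 0.20. Selenos, a selenoprotein of the same complex, was lower with IL-6 than with IL-4 (34.1, 36.1 and 36.2 against 47.8, 46.9 and 54.0 FPKM; −0.48, SE 0.118, limma adjusted p = 0.0151), and the controls, at 40.0, 50.0 and 45.1, overlapped with IL-4. Sec61b, the beta subunit of the channel through which proteins enter the ER, was at 35.6, 50.7 and 46.0 FPKM in control, 53.9, 52.7 and 92.4 in IL-4 and 32.3, 38.3 and 37.8 in IL-6 libraries, and differed between IL-6 and IL-4 (−0.83, SE 0.236, limma adjusted p = 0.0277), with IL-4 #3 well above the rest.

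The IL-4 libraries were not alike, and which genes were high differed between them. IL-4 #1 was above all 3 controls, with which it shares the set of intestinal transcripts, in 26 of the 34 tested members (76.5%, against 29.6% of all genes), and it was the highest of the 9 libraries in 16 (47.1%, against 10.9%). These 16 were Pdia3, Pdia4, Pdia6, P4hb, Calr, Canx, Sel1l, Syvn1 and 8 of the 9 HSP70 and HSP90 genes, all but Manf. In Hspa5 it was 1.36 times the control mean and 1.77 times the mean of IL-4 #2 and #3, in Hsp90b1 1.63 and 1.57 times, and in Sdf2l1 1.87 and 1.64 times. For Trib3 it was 7.17 times the control mean and only 0.202 times the mean of IL-4 #2 and #3, and for Asns 4.35 and 0.34 times. A single library has no replicate, and these ratios have no test.

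Within the other set, the 3 IL-6 libraries were below both IL-4 #2 and #3 in 18 members (52.9%, against 24.4% of all genes) and above both in 3, Atf6, Eif2ak3 and Edem1 (8.82%, against 41.8%). The ratio of IL-6 to the mean of these 2 IL-4 libraries was 0.0173 for Trib3, 0.0716 for Asns, 0.0859 for Ddit3, 0.328 for Pdia4 and 0.407 for Sdf2l1, and it was 0.809 for Hspa5. These ratios have no test, and IL-4 #3 is 1 of the 2 IL-4 libraries in them.

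IL-4 #3 was the lowest of the 9 libraries in 9 members (26.5%, against 46.8% of all genes) and the highest in 9 others (26.5%, against 21.0%), and many of the low ones are long. Among 29 members with a known exon length, its median log2 difference from the mean of IL-4 #1 and #2 was 0.02 in the 14 shorter ones (1271 to 3248 bases) and −0.69 in the 15 longer ones (3328 to 9231 bases). Ern1 was at −1.79, Eif2ak3 at −1.55 and Hyou1 at −1.19, and Ddit3 at 2.14 and Trib3 at 1.75. Pdia4 (−0.97, 2399 bases) and Dnajb9 (−1.18, 2549 bases) were low in IL-4 #3 at a short length, and Derl2 (0.42, 8049 bases) was not low at a long one. Without IL-4 #3 the log2 fold change with IL-4 was 3.69 for Trib3, 2.88 for Asns, 2.65 for Chac1, 1.89 for Pdia4 and 1.03 for Atf4, all past the threshold, and Dnajc3 and Sel1l were called higher as well (0.57 each, limma adjusted p = 0.0106 and 0.0316).

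**Figure D5:**
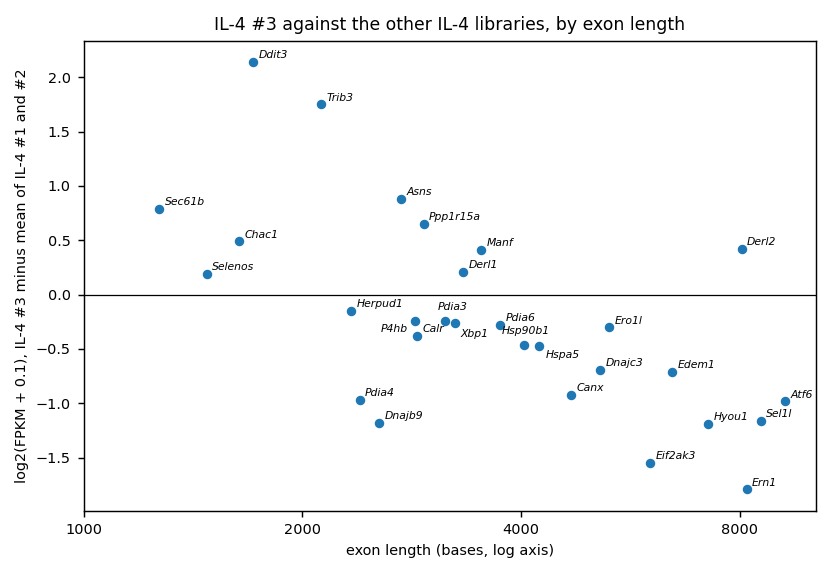
The log2(FPKM + 0.1) of IL-4 #3 minus the mean of IL-4 #1 and #2 (vertical axis) against exon length in bases (log axis) for the 29 members with a known length. Points above 0 are higher in IL-4 #3, and of the 11 longest, from Hspa5 at 4229 bases upwards, all except Derl2 lie below 0.

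Other lists of the secretory pathway were counted in the same way, beside 8.55% of all genes called higher and 16.3% lower with IL-4, 4.58% and 3.82% with IL-6, and 20.8% and 13.3% between IL-6 and IL-4. Of 34 other ER chaperones and folding enzymes tested, 5 rose (14.7%) and 3 fell (8.82%) with IL-4, 1 rose (2.94%) and 2 fell (5.88%) with IL-6, and 2 were higher (5.88%) and 8 lower (23.5%) in IL-6 than in IL-4 Mϕs. Of 40 genes of the translocon, the signal peptidase and N-glycosylation, 4 rose with IL-4 (10.0%), 1 fell with IL-6 (2.50%) and 12 were lower in IL-6 than in IL-4 Mϕs (30.0%), with 0 higher. Of 37 other ERAD genes, 2 rose and 2 fell with IL-4 (5.41% each), 1 rose and 1 fell with IL-6 (2.70% each), and 2 were higher (5.41%) and 3 lower (8.11%) between IL-6 and IL-4. Of 29 genes of ER-to-Golgi transport, 1 rose (3.45%) and 2 fell (6.90%) with IL-4, 0 passed with IL-6, and 1 was called in each direction between the cytokines (3.45% each). Among 15 other sensors and regulators, 2 rose and 2 fell with IL-4 (13.3% each), 1 fell with IL-6 (6.67%), and 2 were higher (13.3%) and 3 lower (20.0%) in IL-6 than in IL-4 Mϕs.

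Wfs1, a regulator of ER calcium and of ATF6 turnover, had the largest change with IL-4 of the 197 other pathway genes tested. It was at 3.47, 3.70 and 3.73 FPKM in control, 73.2, 86.2 and 72.8 in IL-4 and 2.60, 2.30 and 2.04 in IL-6 libraries. It rose 21.3-fold with IL-4 (log2 fold change 4.37, SE 0.132, limma adjusted p = 1.6e-06), and it fell with IL-6 (−0.64, SE 0.132, limma adjusted p = 0.022). The largest falls with IL-4 among these genes were Serp1 (log2 fold change −0.86, SE 0.174, limma adjusted p = 0.00857), a stabilizer of nascent membrane proteins, Ngly1 (−0.68, SE 0.191, limma adjusted p = 0.0324), Arfgap3 (−0.61, SE 0.167, limma adjusted p = 0.0289) and Atf6b (−0.58, SE 0.122, limma adjusted p = 0.00963). With IL-6, the disulfide isomerase Pdia5 (−0.86, SE 0.152, limma adjusted p = 0.011) and the ER peroxidase Prdx4 (−0.79, SE 0.192, limma adjusted p = 0.0419) fell beside Atf3 and Wfs1, and both lay below all controls and all IL-4 libraries. Serp1, Ddit4, Slc7a11 and Bcl2l11, a BH3-only death gene, were the largest rises of IL-6 over IL-4 (0.88, 2.49, 1.06 and 1.09 on the log2 scale, limma adjusted p = 0.00595, 0.000149, 0.0287 and 0.0159).

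Markers of other cells that such cultures can hold also differed between the groups in their summed level. The 6 mast cell and basophil genes, 4 of them over 1 FPKM on average, summed to 13.3 to 29.7 FPKM in control, 47.3 to 80.2 in IL-4 and 6.43 to 23.5 in IL-6 libraries, with Mcpt4 at 0 in all. The 12 B and plasma cell genes summed to 140.1 to 234, 166 to 213 and 214 to 493 FPKM, led by Ighm and Igkc, and Tnfrsf17 was at most 0.655 FPKM. The 10 granulocyte genes summed to 4928 to 8825, 2199 to 4140 and 8002 to 11190 FPKM, and the 10 macrophage genes to 16770 to 19040, 6156 to 7141 and 20520 to 21600. The part of these cells in the values of the UPR and ER folding genes was not tested.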

How the data were processed

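RNA from 9 cultures of BM-derived Mϕs was sequenced as stranded mRNA libraries, and the authors deposited 1 table of FPKM values for 53379 gene IDs. The submitters' processing notes name STAR 2.4.2a, Cufflinks 2.2.1 and GRCm38. With exon lengths from GENCODE M21, which 50604 IDs (94.8%) matched, 100.0% of 183346 values tested came out as whole fragments within 0.05, and the fragments per library follow from these steps. Whether the counting used strand is not given in the sources used here, so overlapping antisense genes may share fragments.

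The 35 genes and all other lists were chosen with earlier results of these data known. Genes with a mean of at least 0.5 FPKM over the 9 libraries were tested as log2(FPKM + 0.1) with limma 3.58.1 in R 4.3.3 (trended, robust), in 1 fit with 3 group means and no covariate, and p-values were adjusted by Benjamini-Hochberg over 12824 genes. Fold changes on this scale understate those of low genes, and ratios in the text are of mean FPKM. P-values measure the spread between these cultures. Other pathway genes are named by size, the 4 called genes that rose most and the 4 that fell most in each comparison. Slc7a1, Slc7a5, the synthetases and single marker genes were named after their values were seen. Alternatives were other pseudocounts, filters, scalings and sets of libraries, a block by mouse number, the set of libraries as a term and limma voom on the fragments. A median-ratio scaling without IL-4 #3 and the removal of each library's trend on exon length were added after seeing the data. The method was tested on simulated data. Promoters are the 250 bases before the start of 32851 RefSeq entries (GRCm38.p6).

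The pairing by mouse number rests on the design text, which names 3 mice. Correlations of same-numbered deviations from the group means were 0.281 to 0.521 for #1, −0.415 to 0.201 for #2 and 0.0777 to 0.166 for #3.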

Additional observations from a re-analysis of the deposited data

How the results depend on the processing

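Over 21 settings, 1965 of 2109 log2 fold changes of single members kept their side of the threshold, 53 lost their call, 73 gained one and 18 turned from a reported value of at least 1 SE in size. The sign also changed in 82 values that were within 1 SE of 0 in the reported fit, 57 of them within 1 SE in both fits, and none of the 82 passed the threshold. The calls of Trib3, Asns, Chac1 and Pdia4 with IL-4, and of these and Atf4, Ddit3, Sdf2l1 and Creld2 between IL-6 and IL-4, held in all settings in which they were fitted. The cause of the shifts below was not tested.

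With library set as a covariate, members higher with IL-6 were 0, lower with IL-6 1 (Trib3), lower with IL-4 0, and higher in IL-6 than in IL-4 2. The log2 fold changes of at least 1 SE that turned were −0.34 (Ppp1r15a), 0.10 (Edem1) and 0.12 (Syvn1) with IL-4, and −0.45 (Ppp1r15a), −1.08 (Chac1), 0.14 (Hspa5), 0.11 (Hsp90b1), 0.63 (Hyou1), 0.11 (Dnajb11), 0.10 (Creld2) and 0.30 (Syvn1) with IL-6. Of 17 further sign changes in this fit, from within 1 SE, the largest were Eif2ak3 (1.02), Dnajb9 (0.80), Canx (0.60) and Pdia4 (0.51) with IL-6 and Hyou1 (0.56) and Hspa5 (0.45) with IL-4. Quantile normalization turned Pdia3 (−0.09) and P4hb (−0.05) with IL-4 and P4hb between IL-6 and IL-4 (0.02), and it ended the calls of Hsp90b1, Calr and Pdia3 there. Fits without 1 library each put Ern1 between IL-6 and IL-4 at −0.05 (without IL-4 #3) to 0.92 (without IL-4 #2). With median-ratio rescaling and without IL-4 #3, Ern1 was at −0.15 there, and Edem1 and Syvn1 were at 0.00 and 0.04 with IL-4. Counts were then 11 higher with IL-4 and 8 lower with IL-6, beside 2260 and 1698 of 12831 genes.

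Members lower with IL-4 were 0 with median-ratio rescaling (1606 of 12824 genes), with only the groups compared in the fit (1125 of 12622) and with a 2-fold limit (1140 of 12824). They were 2 (Atf6, Herpud1) with the length trend removed (1958 of 11356 genes). Leaving out single libraries gave 0 to 1, beside 1268 to 2890 of all genes. Members lower with IL-6 were 1 with no filter (385 of 31047 genes) or a 2-fold limit (243 of 12824). Limma voom and the fit with the length trend removed cover 29 members, without Atf4, Dnajb11, Sdf2l1, Creld2 and Syvn1. They gave 1 and 5 lower (390 and 814 of 11356 genes), and voom changed no call of these members with IL-6. With only the groups compared, 10 were lower (1385 of 12797 genes) and 2 higher, Ero1l and Ppp1r15a (1451 genes). All genes called lower in the reported fit were 490 of 12824. Leaving out single libraries gave 0 to 8, beside 155 to 1597 of all genes. Between IL-6 and IL-4, a 2-fold limit gave 8 lower (875 of 12824 genes). Fits without single libraries gave 10 to 21 lower and 0 to 2 higher, beside 1151 to 2343 and 1680 to 3194 of all genes.

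With the replicate block, counts of higher and lower members were 8 and 1 with IL-4, 1 and 1 with IL-6, and 0 and 14 between IL-6 and IL-4. Counts over all 12824 genes were 1058 and 1965, 538 and 370, and 2739 and 1724 in the same order. The block changed no call of a member other than Ddit3 (gained with IL-4), Sdf2l1 (lost with IL-6), Dnajb11 and Calr (lost between IL-6 and IL-4).

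Depth limits Derl3, where 3 to 22 fragments cannot show a difference, and Chac1 in the controls, which rests on 31 to 42 fragments. With 3 libraries a group, an exact permutation test of 1 gene cannot go below p = 0.1.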

Other observations

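Some genes of other cells were present at low levels and divided with the groups or sets. Enterocyte genes (13, summed) were at 5.19 to 5.84 FPKM in control, 1.88 to 2.89 in IL-4 and 1.92 to 2.32 in IL-6 libraries, and skeletal muscle genes (18) at 6.15 to 9.03, 2.31 to 11.6 and 9.92 to 16.5. Dendritic cell genes (6) were at 5.36 to 6.34, 2.92 to 3.71 and 4.15 to 8.08 FPKM, erythroid genes (7) at 1.24 to 7.95, 0.572 to 7.50 and 3.48 to 10.2, and fibroblast and stromal genes (7) at 0.320 to 0.717, 0.146 to 0.407 and 0.415 to 0.622. Sdc1, a plasma cell marker that other cells also express, was at 37.1 to 52.6 FPKM in the IL-4 libraries and 5.79 to 9.69 in the others, while the plasma cell gene Mzb1 was at 0.950 to 3.60 in all 9.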
